A study of Mus musculus with 4 samples.

Results

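The smooth muscle contractile genes are 10 genes that encode the filaments of the smooth muscle contractile apparatus: Acta2, Actg2, Tagln, Myl9, Cnn1, Myh11, Tpm1, Tpm2, Lmod1 and Des. They were taken by gene symbol from the array's non-control probes, on which they have 16 of 39429 probes and make up 10 of 29675 genes. Where a gene has several probes, the brightest stands for it and the others are given beside it. The study measured Swiss 3T3 cells, a mouse fibroblast line, in a project on mast cell maturation in contact with fibroblasts. Fibroblasts were either Lpar1+/+ (WT) or Lpar1-/- (KO), the latter made with CRISPR/Cas9 and taken through single-cell cloning, so that KO is 1 clone. Lpar1 encodes a receptor for lysophosphatidic acid. Both genotypes were labelled as cocultured, at 0 h or 24 h, with wild-type mast cells grown from bone marrow in IL-3, and the protocol gives 100 ng/ml SCF, the mast cell growth factor, in the coculture. What the 0 h samples contained is not stated in the labels. After coculture, fibroblasts were separated by reseeding or with beads against CD117, the Kit protein of mast cells. Each of the 4 groups has 1 array, hybridised with RNA pooled from 3 samples and labelled from 200 ng. There are thus no replicates and no p-values, and every difference is between arrays as labelled.

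Smooth muscle contracts when myosin heads pull on actin filaments after the regulatory light chain is phosphorylated. Tropomyosins, calponin and transgelin lie along the actin filament, and desmin forms the intermediate filaments that hold the array of filaments in place. Fibroblasts switch on part of this set when they turn into myofibroblasts. Many of these genes carry CArG boxes, short AT-rich elements bound by serum response factor (SRF). SRF works there with myocardin or with the myocardin-related factors MRTF-A and MRTF-B, which enter the nucleus when actin polymerises.

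The signal on each array is given as log2 of the processed intensity minus that array's 75th percentile, so that 0 is the 75th percentile. Between 62.1% and 72.7% of non-control spots were well above background, and no spot was saturated. Precision is limited by the number of arrays. Errors are standard errors (SE) from the scanner software's spot error, with a median of 0.20 for a difference of 2 arrays, and cover neither cultures nor labelling. Only genes whose probe exceeded background clearly (the scanner software's flag) on both arrays of a difference count as measured, and a measured gene is called higher or lower from 2-fold on. Where only 1 of both arrays was above background, an at-least fold is given, taken against whichever is greater, the dim probe's reading or its array's lowest signal above background. Those floors lay at -7.36 and -6.16 in WT at 0 h and 24 h, and at -6.77 and -6.69 in KO. Fibroblast markers were well above background for 18 or 19 of 20 genes on every array, which matches the labelled cell type. Mast cell markers were well above background for 19 and 20 of 20 genes on the 0 h arrays and for 14 and 13 on the 24 h arrays. Their summed signal, as log2 over the array's 75th percentile, was 8.75 and 0.53 in WT at 0 h and 24 h, and 9.26 and 4.08 in KO, so the 0 h arrays carried mast cell RNA. Il1rl1 alone read 3.86 in KO at 24 h and makes up most of that sum, and the markers' median signal at 24 h was -5.07 in WT and -4.92 in KO. Fewer cells of a type and less RNA per cell cannot be told apart in these samples.

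KO fibroblasts carried far more signal than WT for 4 of the contractile genes at both times: Acta2, Actg2, Tagln and Myl9. At 0 h, 7 of the 9 measured members were called higher in KO and 0 lower, with a median difference of 1.33 log2. Over all 20317 genes measured there, 13.4% were called, 9.34% higher and 4.07% lower, and the median was 0.056. At 24 h, 4 of 7 measured members were called higher and 0 lower, with a median of 1.32. Actg2 was also higher and Myh11 lower there, each with only 1 array well above background. Of 17291 genes measured at 24 h, 18% were called, 5.76% higher and 12.3% lower, with a median of -0.093. Of the 10 members, 7 were measured on all arrays, Actg2 and Myh11 on some, and Lmod1 on none. Both times share the probes and the KO clone, so they are no replicates of the genotype difference.

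**Figure D1:**
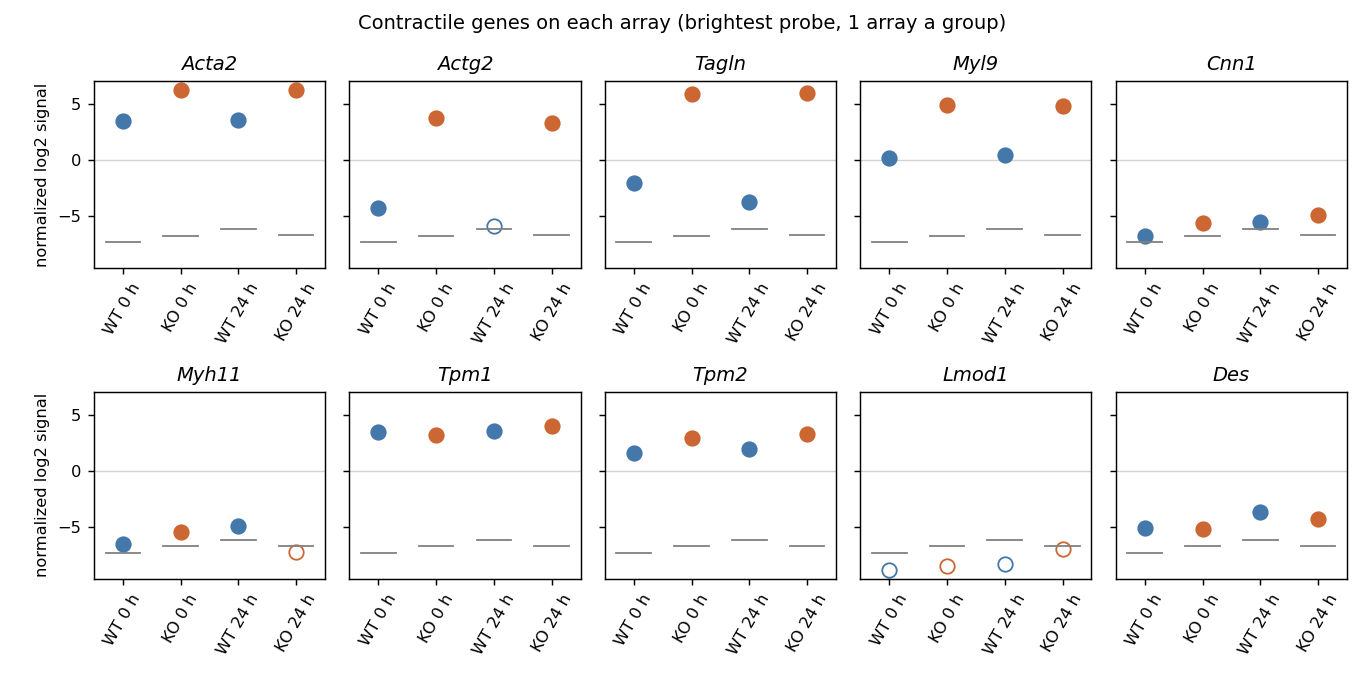
Normalized log2 signal of each contractile gene's brightest probe on the 4 arrays (WT in blue, KO in orange). Open circles were not well above background, grey dashes mark each array's lowest signal above background, and the grey line at 0 is the array's 75th percentile; Acta2, Actg2, Tagln and Myl9 sit high on both KO arrays, while Cnn1, Myh11, Lmod1 and Des sit low on all of them.

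The scale sets the size of every genotype difference. When each array was centred on fibroblast markers in place of its 75th percentile, every KO minus WT value shifted by 1.28 at 0 h and 0.40 at 24 h, and the median of all genes became 1.34 and 0.30. The members' median became 2.62 and 1.71. Tpm1 (1.02) and Des (1.25) then passed 2-fold at 0 h, as did most genes. Over all normalizations tried, KO minus WT at 0 h ran from 2.84 to 4.13 for Acta2, from 7.02 to 9.31 for Actg2, from 7.98 to 9.30 for Tagln and from 4.77 to 6.06 for Myl9. At 24 h it ran from 2.67 to 3.12 for Acta2, from 8.77 to 10.19 for Tagln and from 4.02 to 4.82 for Myl9. Tpm2 was called under each of them at both times, with a lowest value of 1.18 at 0 h and 1.24 at 24 h. Values below are on the 75th percentile scale unless fibroblast scaling is named.

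Acta2 and Actg2 encode the alpha- and gamma-actins of smooth muscle, and both were higher in KO. The Acta2 probe (chr19:34316060-34316119, minus strand, mm9) is printed 10 times on each array. It read 3.48 and 3.58 in WT at 0 h and 24 h, and 6.32 and 6.31 in KO, with an SD over the 10 spots of at most 0.068. Both KO arrays thus read higher than both WT arrays, and the arrays of a genotype read alike. KO exceeded WT 7.18-fold at 0 h (2.84 log2, SE 0.20) and 6.61-fold at 24 h (2.72, SE 0.20). These differences ranked 87 of 20317 genes and 155 of 17291 genes, counted from the highest.

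Actg2 (chr6:83462904-83462963, minus strand, mm9) read -4.27 and -5.88 in WT at 0 h and 24 h, and 3.75 and 3.30 in KO. The WT 24 h value was not well above background, and both KO arrays read far above both WT arrays. The KO signal was 260.2-fold higher at 0 h (8.02 log2, SE 0.21), which ranked 2 of all measured genes. At 24 h it was 581-fold higher. The dim WT reading lay above its array's floor there, so this is the ratio of both readings and no lower bound. With normexp the 24 h difference was 6.88 log2, and over all normalizations it ran up to 9.58. The widely expressed cytoplasmic actins Actb and Actg1 differed by 0.03 and -0.12 at 0 h, which became 1.32 and 1.16 with fibroblast scaling, and by 0.16 and 0.07 at 24 h, which became 0.56 and 0.47. Acta1, the skeletal muscle actin, was higher in KO by 2.55 and 1.66. Actin genes are close in coding sequence, and whether these probes also read the transcripts of other actins was not tested.

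The sequence ahead of the start site was looked at because Acta2, Actg2, Tagln and Myl9 were high together. Windows of 250 bases upstream were read from RefSeq (GRCm38.p6), which gave 7 of the 10 members; Actg2, Tagln and Myh11 were not among them. The windows were searched on both strands for the CArG box and for that box with 1 of its 6 middle bases not A or T, and for CATTCC, the core letters bound by TEAD factors. Hits of the looser CArG form were found in Acta2 and Myl9 and in none of Cnn1, Tpm1, Tpm2, Lmod1 and Des. The windows of Acta2 (chr19:34255374-34255623, minus strand) and Myl9 (chr2:156775214-156775463, plus strand) are shown because both genes were high in KO. Both are written 5′ to 3′ and end at the base before the start site, and capitals mark the CArG-like elements.
Acta2: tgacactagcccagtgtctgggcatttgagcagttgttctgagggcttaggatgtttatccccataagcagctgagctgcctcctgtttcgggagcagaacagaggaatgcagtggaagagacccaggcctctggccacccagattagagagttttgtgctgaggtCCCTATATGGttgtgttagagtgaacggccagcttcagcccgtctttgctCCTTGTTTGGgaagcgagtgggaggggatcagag
Myl9: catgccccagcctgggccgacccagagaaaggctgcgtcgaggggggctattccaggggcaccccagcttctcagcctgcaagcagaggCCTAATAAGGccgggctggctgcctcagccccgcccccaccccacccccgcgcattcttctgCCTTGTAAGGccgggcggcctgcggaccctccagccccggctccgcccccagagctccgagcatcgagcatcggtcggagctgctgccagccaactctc
Acta2 has CCCTATATGG beginning 84 bases and CCTTGTTTGG beginning 34 bases upstream of the start site. Myl9 has CCTAATAAGG 161 bases upstream, which is a full CArG box, and CCTTGTAAGG 99 bases upstream. Of 32851 such windows of 27025 genes, 1.47% hold a full CArG box, 8.59% the looser form and 0.67% at least 2 elements of the looser form. CATTCC was present in the windows of Acta2, Tpm1 and Lmod1 and in 12.6% of all windows. These matches describe letters in the window and nothing about binding in these cells.

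Tagln and Cnn1 belong to the calponin family of actin-binding proteins, and their values were unlike each other. Tagln encodes transgelin, an early marker of smooth muscle. Its probe (chr9:45738097-45738156, minus strand, mm9) read -2.09 and -3.77 in WT at 0 h and 24 h, and 5.92 and 6.03 in KO. All of these were well above background, with both KO arrays far above both WT arrays. KO exceeded WT 259-fold at 0 h (8.02 log2, SE 0.20), which ranked 3 of 20317. At 24 h it did so 887-fold (9.79, SE 0.21), which ranked 1 of 17291.

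Cnn1 encodes calponin 1, a marker of more mature smooth muscle. It read -6.82 and -5.53 in WT at 0 h and 24 h, and -5.60 and -4.96 in KO (chr9:21913058-21913117, plus strand, mm9). Every value lay within 2 log2 of its array's floor. KO minus WT was 1.22 (SE 0.34) at 0 h, a call that was lost with normexp background correction (0.13) and with quantile normalization (0.78). At 24 h the difference was 0.57 (SE 0.31), and 1.37 with quantile normalization. The isoforms Cnn2 and Cnn3, which fibroblasts express, differed by 0.37 each at 0 h and by 0.25 and 0.75 at 24 h. Tagln2 differed by 0.05 and -0.06.

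Myl9 and Myh11 encode myosin subunits, and again the values of the pair were unlike. Myl9 encodes the regulatory light chain whose phosphorylation starts contraction. Its probe (chr2:156607301-156607360, plus strand, mm9) read 0.18 and 0.42 in WT at 0 h and 24 h, and 4.95 and 4.84 in KO. KO exceeded WT 27.3-fold at 0 h (4.77 log2, SE 0.20; rank 18) and 21.5-fold at 24 h (4.43, SE 0.20; rank 38). The non-muscle light chains Myl12a and Myl12b, which serve the myosin of other cells, differed by 0.08 and 0.20 at 0 h and by 0.26 and -0.53 at 24 h.

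Myh11, the smooth muscle myosin heavy chain and the marker held to be most specific for that cell type, was close to background. It read -6.57 and -4.90 in WT at 0 h and 24 h, and -5.46 and -7.26 in KO (chr16:14202190-14202249, minus strand, mm9). The last of these was not well above background. KO was higher by 1.11 (SE 0.38) at 0 h, a call that was lost with normexp (0.13) and with quantile normalization (0.69). At 24 h KO was lower than WT, by at least 3.46-fold on this scale, and differed by -0.22 log2 with normexp and -1.53 with quantile normalization. The 2 dim spike-in controls, RNAs added in equal amount to every sample, differed in the same directions, with medians of 0.63 at 0 h and -0.78 at 24 h. Their part in the Myh11 values was not tested. The 8 brighter spike-ins differed by 0.33 and 0.55. Among the heavy chains of non-muscle cells, Myh9 differed by 0.02 and 0.28 and Myh10 by -0.71 and -0.00.

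**Figure D2:**
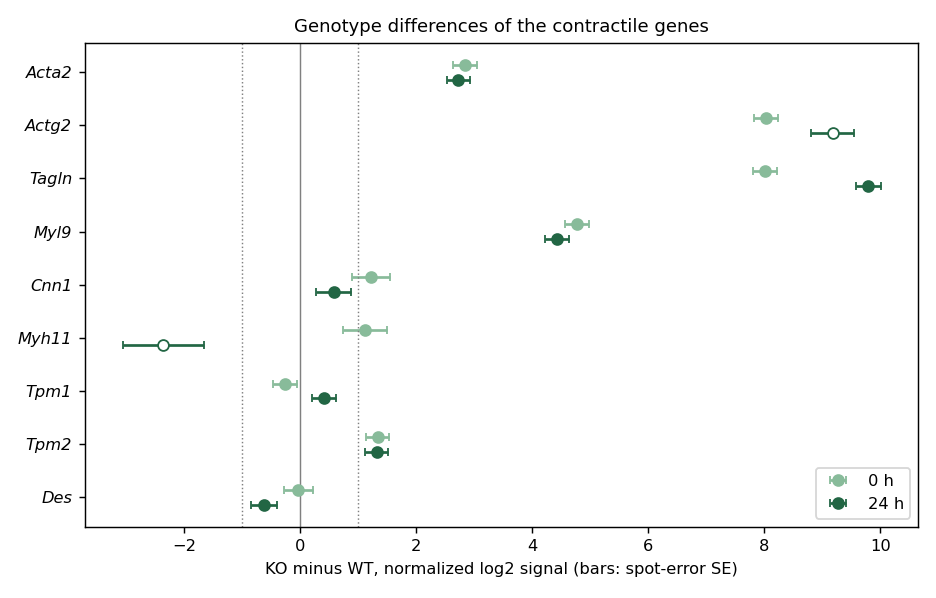
KO minus WT in normalized log2 signal for each contractile gene except Lmod1 at 0 h (light green) and 24 h (dark green). Bars are the spot-error SE, dotted lines mark 2-fold, and open circles are differences with only 1 array well above background; Tagln reaches 8.02 and 9.79 and Tpm1 and Des stay within 2-fold at both times.

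Tropomyosins wind along the actin filament and set which myosins and binding proteins reach it, and both genes give muscle and non-muscle isoforms by splicing. Tpm2 was higher in KO at both times and on both of its probes. Its brighter probe (chr4:43532262-43532321, minus strand, mm9) read 1.60 and 1.96 in WT at 0 h and 24 h, and 2.94 and 3.28 in KO. The KO excess was 1.33 at 0 h and 1.32 at 24 h. The other probe (chr4:43531276-43531335) read 0.34 and 0.35 in WT and 1.37 and 1.62 in KO, with differences of 1.02 and 1.27. Every Tpm2 difference has an SE of 0.20.

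Tpm1 has 6 probes, and they did not all differ alike. The brightest (chr9:66871166-66871225, minus strand, mm9) read 3.46 and 3.60 in WT at 0 h and 24 h, and 3.20 and 4.00 in KO. The genotypes differed (KO minus WT) by -0.26 at 0 h and 0.40 at 24 h, so the gene was not called at either time. The probe at chr9:66876655-66876714 gave the widest difference, with 0.96 at 0 h and 1.61 at 24 h, the latter 3.05-fold. It read -0.93 and -0.69 in WT and 0.03 and 0.92 in KO. A pair of overlapping probes that share 46 bases (from 66875782 to 66875855) gave 0.52 and 0.45 at 0 h and 0.87 and 0.86 at 24 h. The probes at 66880274 and 66872131 gave -0.19 and -0.32 at 0 h and 0.51 and 0.08 at 24 h. On this scale all 6 probes had a higher KO minus WT value at 24 h than at 0 h, and the sign at 0 h depended on the probe. With fibroblast scaling the brightest probe gave 1.02 at 0 h and 0.80 at 24 h. The order of the times and the sign at 0 h thus depended on the scale. Which transcript isoforms each probe reads was not analysed here. The 4 probe sequences are shown because the Tpm1 pair below was called at neither time and the Tpm2 pair at both. Choosing by those calls left out the Tpm1 probe called higher at 24 h. The contrast between the pairs shown follows from this choice. Each sequence is the 60-base probe as deposited, written in lower case, with mm9 positions as above.
Tpm1, chr9:66871166-66871225: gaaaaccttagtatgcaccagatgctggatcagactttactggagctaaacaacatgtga
Tpm1, chr9:66880274-66880333: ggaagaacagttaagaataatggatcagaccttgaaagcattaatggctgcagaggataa
Tpm2, chr4:43532262-43532321: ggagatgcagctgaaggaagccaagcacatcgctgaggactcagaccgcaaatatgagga
Tpm2, chr4:43531276-43531335: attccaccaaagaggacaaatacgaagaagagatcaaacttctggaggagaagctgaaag
The brightest Tpm1 probe ends in the stop codon tga. Both Tpm1 probes shown had a KO minus WT value below 0 at 0 h and above 0 at 24 h, and both Tpm2 probes were called higher at both times. The widely expressed Tpm3 and Tpm4 differed by 0.04 and -0.12 at 0 h and by 0.19 and 0.05 at 24 h.

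**Figure D3:**
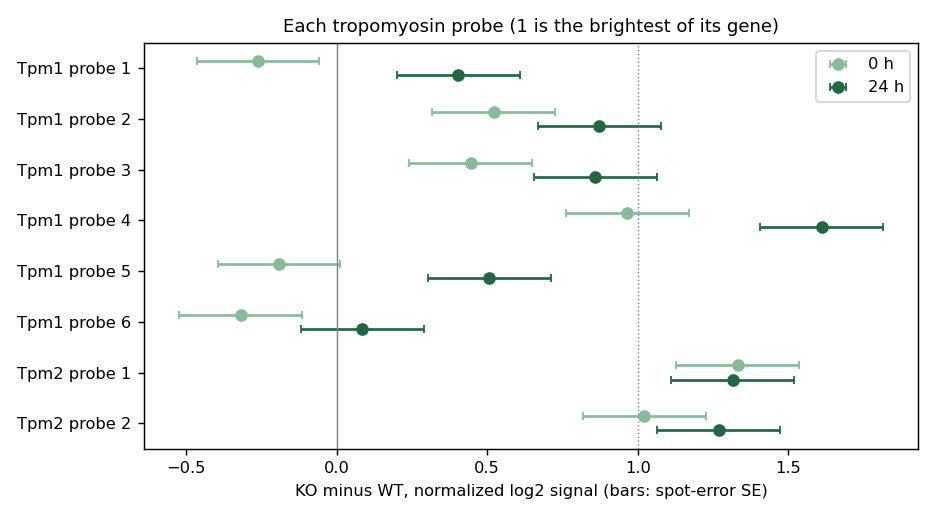
KO minus WT in normalized log2 signal for each of the 6 Tpm1 and 2 Tpm2 probes at 0 h (light green) and 24 h (dark green), numbered from the brightest. Bars are the spot-error SE and the dotted line marks 2-fold; the Tpm2 probes lie between 1.02 and 1.33, and the Tpm1 probes spread from -0.32 to 1.61.

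Lmod1 encodes leiomodin 1, which nucleates actin filaments in smooth muscle, and no array showed it well above background. Its probe read -8.91 and -8.32 in WT and -8.53 and -7.04 in KO, values that have no order. Des encodes desmin, the intermediate filament protein of muscle, and was dim but measured on every array. Its probe (chr1:75363404-75363629, plus strand, mm9) is printed 10 times and read -5.17 and -3.67 in WT at the times in turn, and -5.20 and -4.31 in KO. The SD over its spots was 0.17 and 0.11 in WT and 0.10 and 0.26 in KO. The 24 h arrays read higher than the 0 h arrays in both genotypes. KO differed from WT by -0.04 (SE 0.25) at 0 h and -0.63 (SE 0.22) at 24 h, neither of which reached 2-fold. Nes, which encodes the intermediate filament protein nestin, was lower in KO by -4.16 and -3.47, and Synm, which encodes synemin, a partner of desmin, by -2.29 and -3.09. Vim, the vimentin of fibroblasts, differed by -0.15 and -0.01.

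Between 0 h and 24 h the members that separated the genotypes moved little in KO. In WT, 3 of 8 measured members were called higher at 24 h and 1 lower, with a median difference of 0.30. The background there was 21.4% of 19197 genes, with 15.8% higher and 5.57% lower and a median of 0.28. In KO, 0 of 8 measured members were called, and Myh11 was lower by at least 2.34-fold, which became -0.12 log2 with normexp and -0.98 with quantile normalization. Over all 17861 genes measured in KO, 20.4% were called, 9.48% higher and 10.9% lower, with a median of 0.23, close to the members' 0.22.

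The call lower in WT was Tagln, which differed by -1.67 (SE 0.21). Actg2 was lower there 3.06-fold by its dim 24 h reading, or by -0.53 log2 with normexp. In KO the same genes differed by 0.10 and -0.45, each with an SE of 0.20. Mast cell markers were lower at 24 h in both genotypes, with medians of -8.04 in WT and -8.41 in KO, over 14 and 13 measured genes. Their part in the Tagln and Actg2 differences was not tested. The calls higher in WT were Cnn1 with 1.29 (SE 0.37), Myh11 with 1.67 (SE 0.38) and Des with 1.49 (SE 0.23), all of them dim probes. The dim spike-ins differed by 1.11 between these arrays and by -0.29 in KO, and the brighter ones by 0.24 and 0.46. With normexp none of these 3 genes was called (0.16, 0.23 and 0.69). Cnn1 and Des differed by 0.65 and 0.90 in KO. Acta2 and Myl9 differed by 0.11 and 0.24 in WT and by -0.01 and -0.10 in KO. With fibroblast scaling every KO difference moved down, to an all-gene median of -0.89, and Acta2, Actg2, Tagln and Myl9 were then lower at 24 h by -1.13, -1.57, -1.01 and -1.22. Tpm1 and Tpm2 differed by 0.14 and 0.36 in WT and by 0.81 and 0.34 in KO.

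**Figure D4:**
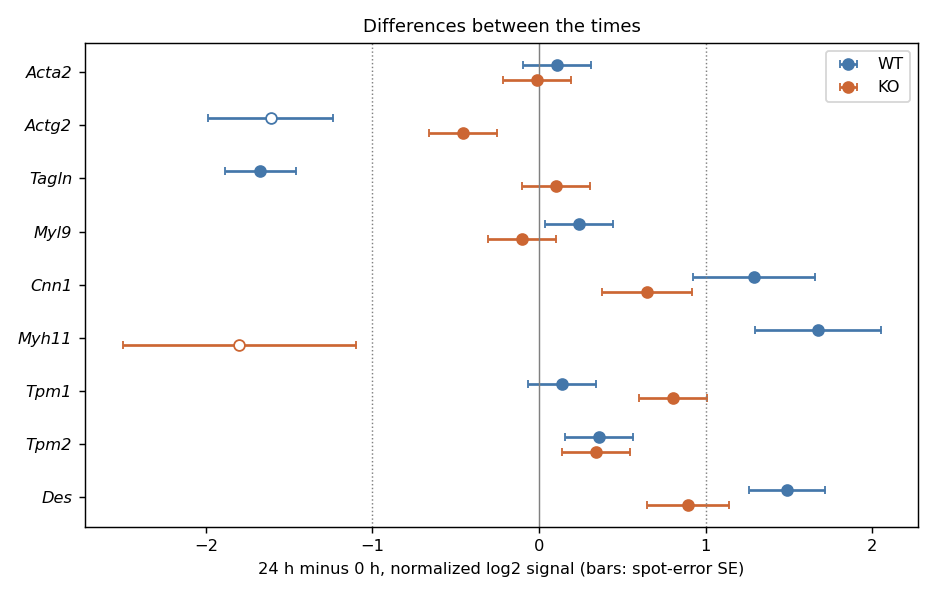
Difference of 24 h minus 0 h in normalized log2 signal for each contractile gene except Lmod1, in WT (blue) and KO (orange). Bars are the spot-error SE, dotted lines mark 2-fold, and open circles are differences with only 1 array well above background; Tagln is at -1.67 in WT and 0.10 in KO, while Acta2 and Myl9 lie near 0 in both.

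The difference of differences, KO 24 h minus 0 h less WT 24 h minus 0 h, reached 2-fold for 1 of the 7 members measured on every array. That gene was Tagln, with 1.78 (SE 0.29), and the value fell below 2-fold with normexp (0.78) and with fibroblast scaling (0.89). The others were Tpm1 with 0.67, Tpm2 with -0.02, Acta2 with -0.12, Myl9 with -0.35, Des with -0.60 and Cnn1 with -0.65. With fibroblast scaling the members past 2-fold were others, all below 0: Acta2 with -1.01, Myl9 with -1.23, Des with -1.48 and Cnn1 with -1.53. The SE of these was 0.29, except 0.34 for Des and 0.46 for Cnn1. There is 1 array a group, so the values were not tested.

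Other genes of the same families, listed as family isoforms, showed no common difference. Of 24 measured at 0 h, 4 were higher and 2 lower in KO, with a median of 0.06, and of 21 at 24 h, 1 was higher and 4 lower, with a median of 0.05. With fibroblast scaling these medians were 1.35 and 0.45, close to that scaling's shift of all genes. The highest at 0 h after Acta1 was Tmod2, which caps filament ends in neurons, with 1.44, or 0.32 with normexp. At 24 h Myl6b, a light chain, was lower by -1.48 after Nes and Synm.

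Genes that control contraction gave 4 higher and 0 lower of 16 measured at 0 h, with a median of 0.11. At 24 h they gave 2 higher and 1 lower of 15, with a median of 0.15. Of all genes measured, 9.34% were higher and 4.07% lower at 0 h, and 5.76% and 12.3% at 24 h. With fibroblast scaling the medians of this list were 1.39 and 0.55, with 12 and 4 genes higher and 0 lower. Smtn, which encodes smoothelin, a protein of contractile smooth muscle, was higher in KO by 1.55 and 1.95. Ppp1r12a, the targeting subunit of myosin phosphatase, differed by -0.98 and -1.21, or by 0.30 and -0.82 with fibroblast scaling. Ppp1r14a, an inhibitor of that phosphatase, was higher by 1.96 at 0 h, a call lost with normexp (0.66), and differed by -0.00 at 24 h. Mylk, the myosin light chain kinase, differed by -0.34 and 0.02.

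Genes that anchor actin filaments to adhesions and Z bands had higher medians, 0.45 at 0 h and 0.81 at 24 h. Of 19 measured at 0 h, 3 were higher and 1 lower, and of 17 at 24 h, 3 were higher and 1 lower. With fibroblast scaling the medians were 1.73 and 1.20, with 17 and 11 genes higher and 1 and 0 lower. Vcl, which encodes vinculin, was higher in KO by 1.07 and 1.03, the latter 0.95 with quantile normalization. Ldb3, a Z-band protein, was higher by 2.85 at 0 h and by at least 6.28-fold at 24 h, and with normexp these values were 0.71 and 1.13 log2. Csrp2, a LIM protein of smooth muscle, and Cryab, a chaperone of desmin, were called at 24 h, with 1.19 and 1.26, after 0.72 and 0.54 at 0 h. Synpo, which encodes synaptopodin, was lower in KO by -2.40 and -1.15, the latter -0.38 in the mean of its probes. Nexn, which encodes the filament protein nexilin, was named after its values were seen: it was not well above background on either WT array and was at least 93.5-fold higher in KO at 0 h and at least 40.9-fold at 24 h, or by 3.49 and 3.68 log2 with normexp.

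The regulators of these genes showed no common difference, with medians of -0.07 at 0 h and -0.03 at 24 h, which turned to 1.21 and 0.37 with fibroblast scaling. Of 25 measured at each time, 1 was higher and 2 lower at 0 h, and 4 were higher and 5 lower at 24 h. Srf read 1.42 and 1.54 in WT at 0 h and 24 h, and 2.30 and 2.85 in KO, with KO minus WT of 0.88 and 1.31. The mean of its 2 probes gave 0.53 at both times. Mrtfa differed by -0.17 and -0.22 and Mrtfb by -0.07 and 0.08, while Myocd stayed at background on all 4 arrays. Tead4, a TEAD factor, and Tgfb3, a TGF-beta ligand, were higher in KO at 24 h, by 1.86 and 1.28. Tgfbr1, a TGF-beta receptor, was lower at 24 h by -1.43, a call lost in the mean of its probes. Smad3 was lower at 0 h by -1.18, a call lost with fibroblast scaling. Tead1 differed by -0.67 at 0 h and -0.51 at 24 h. Notch3, a receptor of mural cells, was lower by -4.02 and -3.71.

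Matrix genes of myofibroblasts split in direction. Of 11 measured at each time, 3 were higher and 1 lower at 0 h and 4 higher and 1 lower at 24 h, with medians of -0.02 and 0.14, or 1.26 and 0.54 with fibroblast scaling. Ccn2, a target of SRF and TEAD factors, was higher in KO by 2.39 and 3.56, Postn, which encodes periostin, by 2.71 and 1.21, and Tnc, which encodes tenascin C, by 2.66 and 1.49. Normexp took the Tnc values to 0.76 and 0.78 and the 24 h value of Postn to 0.79. Col3a1, a fibrillar collagen, was lower by -1.37 and -1.22, or -0.09 and -0.82 with fibroblast scaling. Fn1 differed by -0.02 and -0.03.

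**Figure D5:**
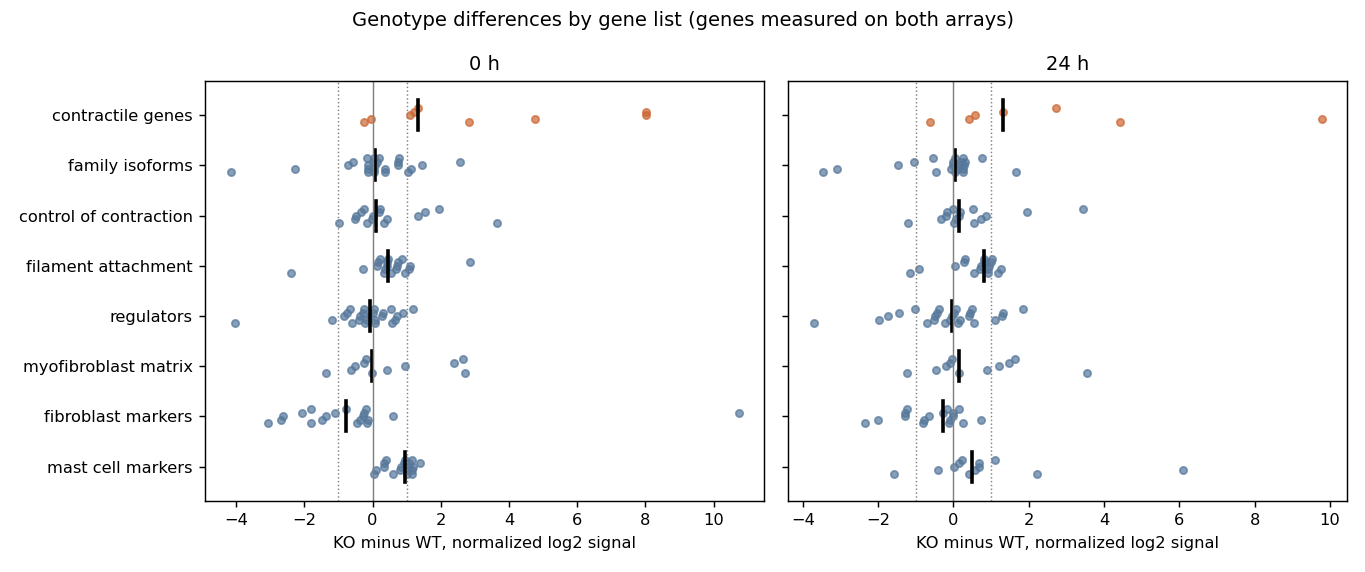
KO minus WT in normalized log2 signal for each gene measured on both arrays, by gene list, at 0 h and 24 h. Each point is a gene, black bars are list medians and dotted lines mark 2-fold; the contractile genes (orange) have medians of 1.33 and 1.32, and the family isoforms 0.06 and 0.05.

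Markers of the cell types present also differed between the genotypes. Of 19 fibroblast markers measured at 0 h, 1 was higher and 9 lower in KO, with a median of -0.79, and of 17 at 24 h, 0 were higher and 5 lower, with a median of -0.27. Fibroblast scaling, which is built on these genes, turned the medians to 0.50 and 0.12. Their summed signal was 8.11 and 8.67 in WT at 0 h and 24 h, and 7.74 and 8.52 in KO. Thy1, a surface protein of fibroblasts and other cells, went the other way, with 10.74 at 0 h and at least 1246-fold at 24 h, or 7.95 and 8.13 log2 with normexp. Of 19 mast cell markers measured at 0 h, 9 were higher in KO and 0 lower, with a median of 0.95. At 24 h 3 of 12 were higher and 1 lower, with a median of 0.49, and Il1rl1, the receptor of IL-33, differed by 6.11. Leukocyte markers gave 14 higher and 0 lower of 18 at 0 h, with a summed signal of 6.62 and 3.29 in WT at 0 h and 24 h, and 7.59 and 2.90 in KO. What these shifts contribute to the contractile genes' differences was not tested.

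Markers of other contractile cells were checked because several share these genes. Of the pericyte markers, Rgs5, Kcnj8, Abcc9 and Vtn stayed at background on all 4 arrays, and 3 or 4 of 9 were well above it on each. Mcam read 3.71 and 4.31 in WT at 0 h and 24 h, and 3.46 and 3.76 in KO. Notch3 read -0.64 and 1.22 in WT, and -4.66 and -2.50 in KO. The skeletal muscle regulators Myod1, Myog and Myf5 stayed at background as well, while between 5 and 8 of 13 skeletal markers were well above it on each array. The summed signal of the skeletal markers lay between -2.27 and -1.52. Of 6 skeletal markers measured at 0 h, 1 was higher in KO and 0 lower, and of 5 at 24 h, 1 was higher and 1 lower. Actn3 was the higher one at both times, by 1.69 and 1.78, and its call at 0 h was lost with normexp. Mylpf was the lower one at 24 h, by -1.37. That call was lost with normexp, with fibroblast scaling and in the mean of its probes. Among cardiac markers, Nkx2-5 and Ryr2 stayed at background on every array. Tnnt2, which encodes cardiac troponin T, read -1.09 and -3.65 in WT at 0 h and 24 h, and 0.82 and 1.47 in KO, with KO minus WT of 1.91 and 5.12. Nppb, which encodes a natriuretic peptide, was higher in KO by 2.26 and 1.94. Other cardiac markers, all of them dim, were lower in KO at 24 h, namely Tnni3 by -1.22, Myh6 by 3.68-fold and Myl7 by at least 2.29-fold. The Tnni3 call was lost with quantile normalization, normexp and fibroblast scaling. The dim spike-ins differed by -0.78 between these arrays, and their part was not tested. Myh6 and Myl7 were not well above background in KO there. Of 7 cardiac markers measured at 0 h, 3 were higher in KO and 0 lower, and of 4 at 24 h, 2 were higher and 1 lower. The summed signal of the 9 cardiac markers was -0.62 and -1.79 in WT and 1.14 and 1.58 in KO, and their part in the contractile genes' differences was not tested.

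Other genes had a profile over the arrays much like that of Acta2. Likeness was measured as the root mean square distance between the 4 signals after each gene was centred on its own mean, over 12859 genes measured on all 4 arrays, with members and provisional gene names left out. The nearest were Slc2a5, a fructose transporter, at 0.15, Ak5, an adenylate kinase, at 0.16, Lmtk3, a kinase, at 0.25, and Cgref1 and Ggnbp1 at 0.26 each. Slc2a5 read -6.25 and -5.91 in WT and -3.49 and -3.16 in KO, and Cgref1 read -1.58 and -1.76 in WT and 1.16 and 1.67 in KO. Slc2a5 and Ggnbp1 (-5.98) thus lay close to the floor of -6.16 in WT at 24 h, unlike Acta2. Likeness was not recomputed under the other normalizations. Nearest to the members' median profile were Eva1a at 0.048, Foxc2, a forkhead transcription factor, at 0.14, Nbl1, a secreted BMP antagonist, at 0.18, Tceal1 at 0.19 and Crip2, a LIM protein, at 0.21. Crip2 read 0.72 and 1.50 in WT and 4.17 and 4.98 in KO. The members' median profile holds, for each array, the median signal of the 7 members measured on all arrays. On the WT arrays that was the Myl9 reading (0.18 and 0.42), and on the KO arrays the Tpm1 reading (3.20 and 4.00). Its genotype differences thus mix probes and are not the members' median differences of 1.33 and 1.32. With 4 arrays these distances only describe the libraries at hand.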

How the data were processed

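RNA of 4 groups was measured with single-colour (Cy3) Agilent arrays of design 026655 on 1 slide, with probe positions on mm9 per the file headers. The deposited scanner files hold spot intensity from Agilent Feature Extraction 12.1.1.1 (per the submitters' processing notes and the file headers). The deposited value table is a linear ratio: each processed signal divided by its array's 75th percentile (1197.47 and 926.641 for WT at 0 h and 24 h, 1002.93 and 749.899 for KO, constant within an array), with column medians of 0.0442 and 0.0452 for WT and 0.0483 and 0.0334 for KO, so its scale, centring and direction are known.

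From the deposited intensity, control spots and spots flagged as outliers were left out, log2 was taken, the 75th percentile was subtracted and repeated spots were averaged. By accession, 29110 of 39429 probes were named through the RefSeq gene table of GRCm38.p6 (344 with a new symbol), and the name in the file was kept for 10319. Genes were represented by their brightest probe. No test was possible with 1 array a group. The contractile genes and all gene lists were chosen with earlier results of these data known. Named genes were all 10 members, up to 3 genes at each end of each list and difference, Srf, Myocd, Mrtfa and Mrtfb, and the 5 genes nearest to Acta2 and to the members' median. Some further list genes, mostly widely expressed isoforms, were named for comparison after their values were seen. Some list genes counted here are not reported by name.

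Alternatives were quantile normalization, normexp (offset 50) with quantile normalization (limma 3.58.1, R 4.3.3), the authors' ratio table, the mean of all probes, fibroblast scaling (each array centred on the median fibroblast marker), no filter and a stricter filter on dim probes, and a 3-fold threshold. The calling step was tested on simulated data. Other steps used Python 3.11.15, numpy 2.4.6, pandas 2.3.3 and matplotlib 3.10.9.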

Additional observations from a re-analysis of the deposited data

Results flagged for a closer look

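Myh11 went in opposite directions in the pairs of groups. It was higher at 24 h than at 0 h in WT, by 1.67 log2, and lower in KO, by at least 2.34-fold. KO was higher than WT at 0 h, by 1.11 log2, and lower at 24 h, by at least 3.46-fold. With normexp the 4 differences in this order were 0.23, -0.12, 0.13 and -0.22 log2. Neither difference between the pairs was tested, since each group has 1 array. All readings lay within 2 log2 of their array's floor, and on KO 24 h the probe was not well above background.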

How the results depend on the processing

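The genotype differences of Acta2, Actg2 (at 0 h), Tagln, Myl9 and Tpm2 kept their direction and their call under the normalizations, the value table and the mean of all probes. Of the 160 member differences recomputed in this way, 91 moved by no more than their SE and 69 by more, as did 15 of 35 differences of differences. Counts of members called, in either direction, changed as follows. KO minus WT at 0 h went from 7 of 9 measured members to 4 of 5 with the stricter filter and to 4 of 9 at 3-fold. It went to 5 of 9 with quantile normalization and with normexp, and to 9 of 9 with fibroblast scaling. All of these calls at 0 h were higher. At 24 h the count went from 4 of 7 to 7 of 10 with no filter, 6 higher and 1 lower. It went to 5 of 7 with quantile normalization and to 3 of 7 at 3-fold. For WT over time it went from 4 of 8 (3 higher, 1 lower) to 1 of 8 with normexp and 1 of 5 with the stricter filter. It became 2 of 8 at 3-fold, 3 of 8 with quantile normalization and 5 of 10 with no filter. For KO over time it went from 0 of 8 to 2 of 8 with quantile normalization, 4 of 8 with fibroblast scaling and 2 of 10 with no filter. The count of differences of differences past 2-fold went from 1 to 0 with normexp and to 4 other members with fibroblast scaling, all below 0. The stricter filter and the 3-fold threshold test fewer genes or ask for more; the cause of the other changes was not tested.

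Over all genes, the share of calls that were higher was 69.6% for KO minus WT at 0 h and became 58.3% with quantile normalization, 59.3% with normexp and 99.0% with fibroblast scaling. At 24 h it was 31.9%, against 46.0%, 50.3% and 64.1%. For WT over time it was 73.9%, against 38.8% with normexp and 60.2% with fibroblast scaling. For KO over time it was 46.5%, against 60.8% with quantile normalization and 1.07% with fibroblast scaling. The share of genes called fell with normexp, from 13.4% to 6.67%, 18% to 7.82%, 21.4% to 6.24% and 20.4% to 12.3% in the same order of comparisons. Fibroblast scaling raised it to 76.4% for KO minus WT at 0 h and to 43.8% for KO over time. In the same order of comparisons, it was 9.83%, 13.7%, 11.2% and 20.0% with the stricter filter. With no filter it was 17.6%, 31.3%, 37.0% and 27.0%, and at 3-fold 3.16%, 7.73%, 7.97% and 7.52%.

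No paired analysis was possible because each group has 1 array and the labels give no replicate numbers. KO is 1 clone, and clone and genotype cannot be told apart. Differences that rest on dim readings (Cnn1, Myh11, Des, and Actg2 and Tagln in WT) mostly shrank with normexp, which was followed by quantile normalization. With quantile normalization alone, the Cnn1 and Myh11 calls for KO minus WT at 0 h were lost too (0.78 and 0.69). What part the background correction had was not tested. Lmod1 was below what these arrays measure.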
